A study of Mus musculus with 16 samples.

Results

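The genes described here are 9 components and receptors of the complement system, namely C1qa, C1qb, C1qc, C2, C3, C4b, Cfb, Cfp and C5ar1. They were taken by gene symbol and are 9 of the 55291 symbols in the deposited tables. All 9 had enough counts to be among the 18745 genes tested. RNA was sequenced from spleen cells of male C57BL/6 mice, either PKR KO or WT. PKR is the kinase encoded by Eif2ak2 that double-stranded RNA activates. Both genotypes were sampled on days 0, 1, 2 and 5 of daily imiquimod, a ligand of Toll-like receptor 7 widely applied to mouse skin as a psoriasis model, given as 62.5 mg of 5% cream on shaved back skin. The 8 groups are therefore PKR KO on day 0, day 1, day 2 and day 5, and WT on day 0, day 1, day 2 and day 5. There were 16 libraries, 2 in each group, and the RNA of 2 spleens was pooled for each, so that n = 2 pools per group throughout. In every group spleens were dispersed into cell suspensions and red cells were lysed before RNA was taken. The extent of the Eif2ak2 deletion in the PKR KO mice is not stated in the labels. No group received cream without imiquimod, so effects of the drug, of the cream and of handling cannot be told apart in a change from day 0.

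Complement is a cascade of mostly secreted proteins that tags microbes, immune complexes and dying cells for uptake and attracts phagocytes. The classical pathway starts when C1q binds its target and the proteases C1r and C1s cleave C4 and C2. The alternative pathway runs on C3, factor B, factor D and properdin, and amplifies the response begun by any route. Liver cells make most of the C3, C4 and factor B of plasma, whereas C1q is made mainly by tissue macrophages and dendritic cells, which are abundant in spleen. In bulk RNA from such a tissue, fewer cells of a type and less RNA per cell cannot be told apart.

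The libraries held 35026754 to 67333830 fragments. Summed markers of B cells lay between 1055 and 1954 CPM in every library. The summed level of 4 hepatocyte genes (Alb, Apoa1, Ttr and Serpina1a) was at most 0.09 CPM, with Ttr at 0 counts in every library. CPM are counts relative to library fragments, scaled by TMM. Eif2ak2 stood at 12.4 and 15.4 CPM in KO on day 0 against 24.9 and 26.6 CPM in WT, and at 43.0 and 37.0 CPM in KO on day 1 against 100.6 and 96.1 CPM in WT. The library labelled KO day 2 replicate 1 had 47.5 CPM and its partner 21.5 CPM, against 32.8 and 42.5 CPM in WT on day 2. That library thus lay above both WT libraries of its day, against its label, and the tests of KO day 2 are given with and without it. Libraries of the same group also differed in one direction over most members. All 9 complement genes were higher in replicate 1 than in replicate 2 of WT day 1, by 1.40 to 2.15 times, and of WT day 5, by 1.06 to 2.49 times. All 9 were higher in replicate 2 than in replicate 1 of KO day 1, by 1.10 to 1.44 times, and 8 of the 9 were higher in replicate 1 of KO day 0, by up to 1.97 times. In the 2 libraries of WT day 1 the summed neutrophil markers were 1308 and 612 CPM, those of monocytes 791 and 457 CPM, and those of red pulp macrophages 120 and 75.2 CPM. The part of these cell types in the results was not tested.

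The loci fall into a few groups in the mm10 build, all on the minus strand. C1qb, C1qc and C1qa lie in a row on chromosome 4, at chr4:136880129-136886187, chr4:136889804-136893065 and chr4:136895917-136898803, with 3616 and 2851 bases between neighbours. C4b, Cfb and C2 lie in the major histocompatibility complex of chromosome 17, at chr17:34728380-34743882, chr17:34856374-34862518 and chr17:34862605-34882100. Only 86 bases separate Cfb from C2. C3 is elsewhere on the same chromosome (chr17:57203970-57228136), Cfp is on the X chromosome (chrX:20925454-20931555), and C5ar1 is at chr7:16246745-16259338. These are the spans of the single protein-coding transcript used for each gene, exons and introns together.

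The RefSeq promoter table of build GRCm38.p6 held entries for 5 of the 9 genes, C1qb, C1qc, C3, Cfp and C5ar1. The 250 bases before the RefSeq start are given here for 3 of them, a C1q chain, the central component C3 and properdin. In these 3, no transcript of the gene reaches into the window. Capitals mark the motif matches found by a search of both strands for 5 motifs. These were the interferon-stimulated element (GAAA, any 2 bases, GAAA), the STAT site (TTC, any 3 bases, GAA), the NF-kB site (GGGA, any 4 bases, CC), the CCAAT box and the PU.1 core GAGGAA. Each sequence is written 5′ to 3′ on the minus strand, at chr4:136886201-136886450 for C1qb, chr17:57228137-57228386 for C3 and chrX:20931556-20931805 for Cfp.
C1qb promoter: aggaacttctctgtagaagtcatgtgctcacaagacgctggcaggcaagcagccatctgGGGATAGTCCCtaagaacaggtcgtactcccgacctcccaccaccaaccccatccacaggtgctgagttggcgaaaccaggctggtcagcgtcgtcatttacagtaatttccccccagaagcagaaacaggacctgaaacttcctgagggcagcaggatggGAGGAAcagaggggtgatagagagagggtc
C3 promoter: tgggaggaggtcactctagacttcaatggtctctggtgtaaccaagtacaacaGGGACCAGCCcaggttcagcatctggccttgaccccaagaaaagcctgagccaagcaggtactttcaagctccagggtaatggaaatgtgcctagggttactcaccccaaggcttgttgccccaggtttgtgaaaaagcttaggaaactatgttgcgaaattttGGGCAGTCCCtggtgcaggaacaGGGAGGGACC
Cfp promoter: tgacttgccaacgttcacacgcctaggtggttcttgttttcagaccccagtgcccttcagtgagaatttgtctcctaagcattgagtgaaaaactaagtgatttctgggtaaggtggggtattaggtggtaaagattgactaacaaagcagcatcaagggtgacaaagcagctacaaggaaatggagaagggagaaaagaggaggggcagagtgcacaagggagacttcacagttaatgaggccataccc

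The C1qb window held an NF-kB match on each strand, overlapping in the same capitals 191 to 181 bases upstream, and a PU.1 core 30 to 25 bases upstream. The C3 window held 3 NF-kB matches, at 197 to 188, 33 to 24 and 10 to 1 bases upstream. In the windows not printed, C1qc had an NF-kB match and a PU.1 core, and C5ar1 had a CCAAT box. Cfp had none of the 5 motifs. None of the 5 windows held the interferon-stimulated element or the STAT site. Among all 32851 promoters of the table, 17.6% held the NF-kB motif, 23.3% the PU.1 core, 33.8% the CCAAT box, 7.02% the STAT site and 2.98% the interferon-stimulated element. A match describes these letters only.

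Against day 0 of the same genotype, imiquimod-treated spleens had more Cfb and C4b RNA on every day sampled and more C5ar1 RNA on day 1, in both genotypes. The C1q chains moved less and not all in the same direction. C3 passed the test in no comparison. Against day 0, C2 passed on no day and Cfp only in KO on day 1. On day 1, 5 of the 9 genes were higher and 0 lower in KO, where 20.7% of all genes tested were higher and 20.9% lower. In WT 3 were higher and 0 lower, where 21.9% of all genes were higher and 22.7% lower. On day 2, 2 were higher and 0 lower in KO (24.0% and 25.6% of all genes), and 2 were higher and 1 lower in WT (22.3% and 23.0%). On day 5, 5 were higher and 0 lower in KO (22.8% and 22.1%), and 3 were higher and 0 lower in WT (21.5% and 18.0%). Shares of 2 or 3 in 9 are close to this background of about 1 gene in 5, and the 5 of 9 in KO on days 1 and 5 are above it. The median log2 change of the 9 was 0.66 in KO and 0.18 in WT on day 1, against -0.04 and -0.07 over all genes. It was 0.30 in KO and -0.11 in WT on day 2 (-0.06 and -0.06 over all genes), and 0.68 in KO and 0.57 in WT on day 5 (-0.03 and -0.01 over all genes). The count in WT on day 5 was 0 without WT day 0 replicate 2 or without WT day 5 replicate 1, and 1 without WT day 0 replicate 1. The count in KO on day 1 was 8 without KO day 0 replicate 1 and 3 without KO day 0 replicate 2. The count in KO on day 5 was 3 without KO day 0 replicate 2 or KO day 5 replicate 2, and that in WT on day 1 was 5 without WT day 1 replicate 1 or either KO day 0 library. Without either WT day 1 library the count in WT on day 5 was 5. Libraries outside a comparison count because all 16 share the estimate of spread. Without the library labelled KO day 2 replicate 1, the KO day 2 count was again 2, C4b and Cfb, and the median log2 change of the 9 was 0.46. The C5ar1 change was then 0.71 (edgeR adjusted p = 0.0666), against 0.30 with it (0.472), and that of C1qb was 0.50 (0.159). C1qa (-0.30, edgeR adjusted p = 0.468), C1qc (-0.23, 0.582), C2 (0.01, 0.993), C3 (0.46, 0.442) and Cfp (-0.07, 0.779) did not pass without it either.

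**Figure D1:**
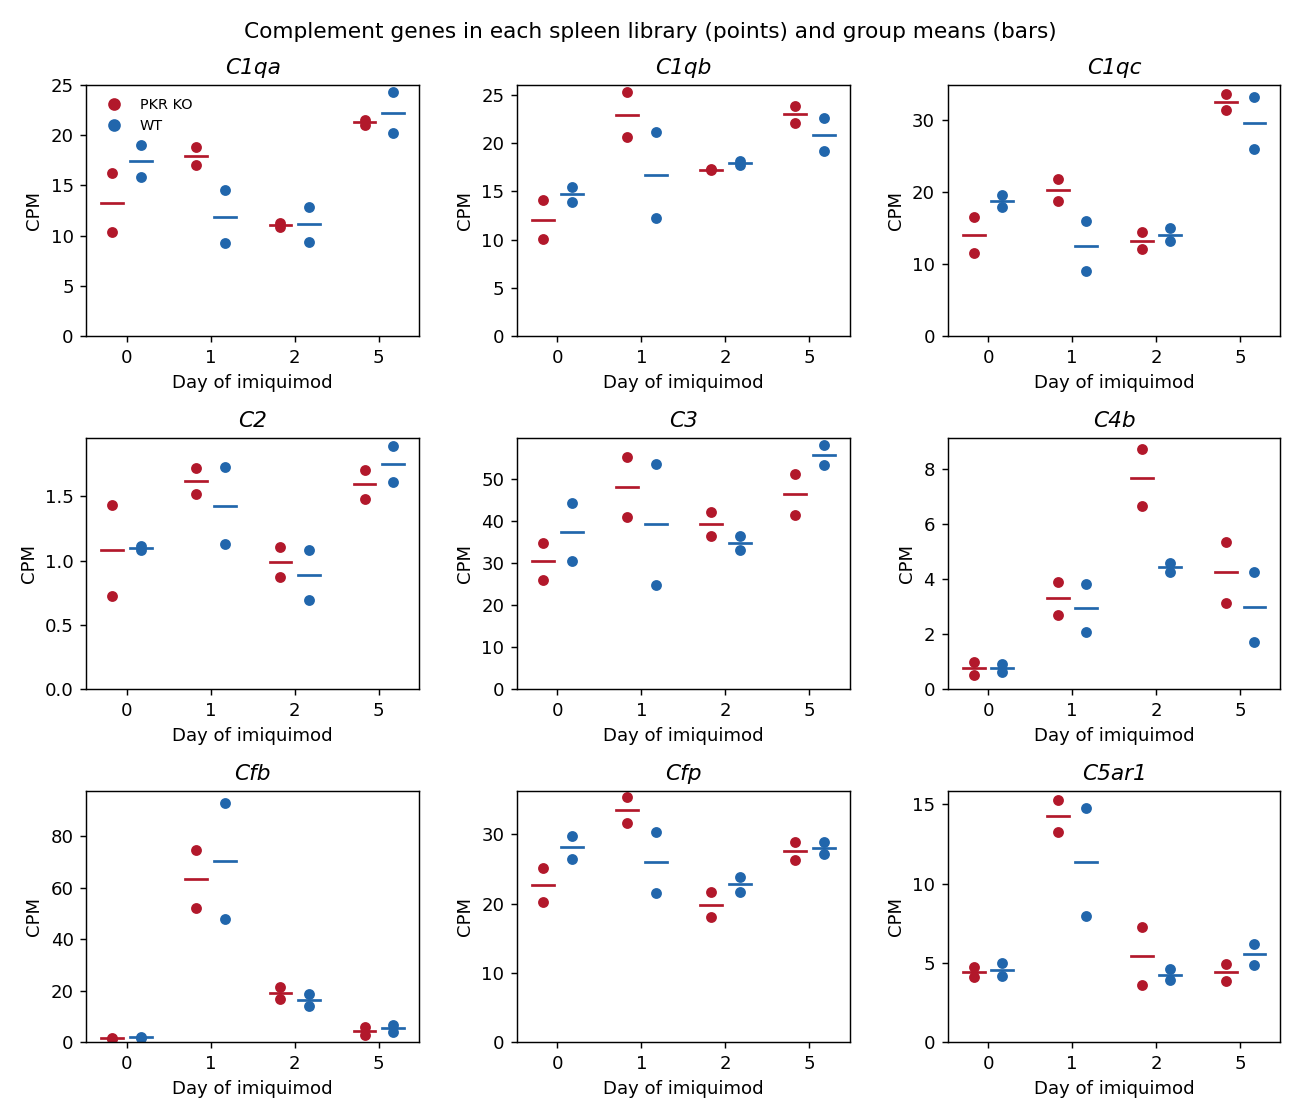
Level of each complement gene (CPM, linear axis from 0) in each library (points) with the group mean (bars), by day of imiquimod, PKR KO in red and WT in blue. Cfb lies between 47.7 and 92.9 CPM in all 4 day 1 libraries and at or below 2.17 CPM in all 4 day 0 libraries, while C3 overlaps between most groups.

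Of the alternative pathway, Cfb encodes factor B, the protease that joins C3b to form the C3 convertase. Cfb had 52.1 and 74.5 CPM in KO on day 1 against 1.52 and 1.43 CPM in KO on day 0. In WT it had 92.9 and 47.7 CPM on day 1 against 2.17 and 1.65 CPM on day 0. The day 1 and day 0 libraries lay far apart in both genotypes. The rise was 42.8-fold in KO (log2 change 5.42 ± 0.49, SE, edgeR adjusted p = 1.92e-05) and 37.1-fold in WT (5.21 ± 0.47, edgeR adjusted p = 2.11e-05). On day 2 the level was 16.6 and 21.6 CPM in KO and 14.1 and 18.6 CPM in WT, still 12.9-fold over day 0 in KO (edgeR adjusted p = 0.000141) and 8.64-fold in WT (edgeR adjusted p = 0.000364). None of the 24 alternatives ended the day 1 or day 2 call in either genotype. On day 5 Cfb had 2.95 and 5.77 CPM in KO and 6.67 and 4.09 CPM in WT, which no longer stood far above day 0. The day 5 log2 change was 1.55 ± 0.50 in KO (edgeR adjusted p = 0.0308) and 1.51 ± 0.46 in WT (edgeR adjusted p = 0.0279). The day 5 call was lost in KO without either KO day 0 library (edgeR adjusted p = 0.102 and 0.114) or without KO day 5 replicate 2 (0.172), and with no filter on low counts (0.0667). In WT it was lost without either WT day 0 library (edgeR adjusted p = 0.0739 and 0.154) or without WT day 5 replicate 1 (0.155), and with no filter (0.0649).

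The counts assigned to C2 did not follow those of its neighbour Cfb. A readthrough transcript, Gm20547, spans both genes at chr17:34856412-34882042, and fragments were counted in every transcript they overlap. In day 1 libraries its count was 97.7% and 97.3% of the Cfb count in KO and 97.0% and 98.3% in WT. C2 in the same libraries had 64 and 84 counts in KO and 107 and 88 in WT, where Cfb had 2192 and 3634 counts in KO and 5760 and 3706 in WT. The C2 counts of day 1 thus lay far below those of Cfb and of the readthrough transcript.

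C3, the component on which all routes converge, passed the test on no day. It had 41.1 and 55.4 CPM in KO on day 1 against 34.9 and 26.1 CPM in KO on day 0. WT had 53.7 and 24.9 CPM on day 1 against 30.4 and 44.4 CPM on day 0, so that the WT libraries of day 1 lay on both sides of those of day 0. On day 2 C3 had 36.5 and 42.2 CPM in KO and 33.1 and 36.4 CPM in WT. On day 5 it had 41.6 and 51.3 CPM in KO and 58.2 and 53.4 CPM in WT, with both libraries of each genotype above its day 0. In KO both day 1 libraries lay above day 0 too (log2 change 0.66, edgeR adjusted p = 0.141). Those day 5 changes were 0.60 in KO (95% interval -0.14 to 1.35, edgeR adjusted p = 0.170) and 0.57 in WT (-0.16 to 1.31, edgeR adjusted p = 0.199). The intervals thus run from a slight fall to a rise of over 2-fold. These C3 results turn on the WT day 1 libraries. Without WT day 1 replicate 1 the edgeR adjusted p was 0.0130 for KO on day 1, 0.0151 for KO on day 5 and 0.0239 for WT on day 5, and without WT day 1 replicate 2 these 3 changes passed as well. With only the groups compared in the fit, the same changes had edgeR adjusted p = 0.00127, 0.000275 and 0.0190.

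Cfp encodes properdin, a protein of myeloid cells that stabilises the alternative convertase, and its level kept within a narrow band. Over the 16 libraries its highest level was 1.95 times its lowest. It had 31.7 and 35.3 CPM in KO on day 1 against 25.1 and 20.3 CPM in KO on day 0, a log2 change of 0.56 ± 0.15 (edgeR adjusted p = 0.00686). WT had 30.3 and 21.6 CPM on day 1 against 29.8 and 26.4 CPM on day 0, and the groups overlapped (log2 change -0.11, edgeR adjusted p = 0.562). The KO call was lost without KO day 0 replicate 2 (edgeR adjusted p = 0.0811) or KO day 1 replicate 2 (0.0633). On day 2 Cfp had 18.1 and 21.6 CPM in KO and 21.7 and 23.9 CPM in WT, and on day 5 it had 26.3 and 28.9 CPM in KO and 28.8 and 27.2 CPM in WT. Neither day differed from day 0 past the test in either genotype.

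Of the classical pathway, C4b encodes the mouse C4 that is cleaved by C1s, and its RNA was scarce on day 0 and rose on each later day. It had 0.99 and 0.52 CPM in KO on day 0, 2.71 and 3.89 CPM on day 1, 6.65 and 8.71 CPM on day 2, and 3.13 and 5.35 CPM on day 5. In WT it had 0.91 and 0.62 CPM on day 0, 3.82 and 2.06 CPM on day 1, 4.26 and 4.59 CPM on day 2, and 4.27 and 1.71 CPM on day 5. Every library of a treated day lay above every day 0 library of both genotypes, and the highest mean was that of KO on day 2. Log2 changes from day 0 in KO were 2.10 ± 0.50 on day 1 (edgeR adjusted p = 0.0053), 3.32 ± 0.50 on day 2 (edgeR adjusted p = 0.000144) and 2.45 ± 0.50 on day 5 (edgeR adjusted p = 0.00179). In WT they were 1.96 ± 0.49 on day 1 (edgeR adjusted p = 0.00629), 2.56 ± 0.49 on day 2 (edgeR adjusted p = 0.00107) and 1.99 ± 0.50 on day 5 (edgeR adjusted p = 0.00745). Unlike Cfb, which was highest on day 1, C4b had its highest group means on day 2. No C4b change from day 1 to day 2 or from day 2 to day 5 passed the test in either genotype. In WT these were 0.60 (edgeR adjusted p = 0.313) and -0.57 (0.379), with overlapping libraries on days 2 and 5. The KO change from day 2 to day 5 was -0.86 (edgeR adjusted p = 0.141), and that from day 1 to day 2 is given below. The day 1 call was lost without KO day 0 replicate 2 (edgeR adjusted p = 0.0535) in KO and without WT day 0 replicate 2 (0.0850) in WT. The WT day 5 call was lost without WT day 0 replicate 2 (edgeR adjusted p = 0.0795) or WT day 5 replicate 1 (0.0730). With the library labelled KO day 2 replicate 1 left out, the KO day 2 changes were 3.49 for C4b (edgeR adjusted p = 0.000791) and 3.87 for Cfb (0.000849).

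C4b has a near-identical paralog, C4a, at chr17:34809092-34823464, and how fragments were divided between them is uncertain. On day 0 the 2 genes had the same count in both WT libraries (41 and 39) and in KO replicate 1 (47). On later days C4a kept 21 to 64 counts per library, where C4b had 114 to 339 counts in KO and 70 to 237 counts in WT. C4a passed the test on no day in either genotype. The C4a transcript counted is a processed transcript with no coding annotation.

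Markers of plasma cells, and some of endothelial and stromal cells, moved beside C4b. The 5 plasma cell markers summed to 246 and 300 CPM in KO on day 0, 385 and 347 CPM on day 1, 2353 and 1264 CPM on day 2, and 347 and 454 CPM on day 5. In WT they summed to 287 and 262 CPM on day 0, 482 and 411 CPM on day 1, 1987 and 1485 CPM on day 2, and 514 and 663 CPM on day 5. Like the C4b means, these sums were highest on day 2 in both genotypes, when all 5 markers were higher than on day 0 and 0 lower. Within day 2 the library with the higher plasma cell sum had the lower C4b level, in KO and in WT. Of the endothelial and stromal markers, 8 of 9 tested were higher and 1 lower in KO on day 2, and 4 were higher and 1 lower in WT, although their summed level was 74.1 and 73.9 CPM in KO on day 2 against 93.4 and 90.9 CPM on day 0. In WT the sum was 78.3 and 73.5 CPM on day 2 against 94.5 and 97.5 CPM on day 0. Without the library labelled KO day 2 replicate 1, all 5 plasma cell markers were higher in KO, and of the stromal markers 6 were higher and 1 lower. The part of these cells in the C4b level was not tested.

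C2, the protease partner of C4, rested on 28 to 107 counts per library. It had 1.52 and 1.72 CPM in KO on day 1 against 1.43 and 0.73 CPM in KO on day 0. WT had 1.73 and 1.13 CPM on day 1 against 1.08 and 1.11 CPM on day 0. On day 2 it had 0.87 and 1.11 CPM in KO and 1.08 and 0.69 CPM in WT, and on day 5 1.71 and 1.48 CPM in KO and 1.89 and 1.61 CPM in WT. No day differed from day 0 past the test. Its largest change from day 0 was 0.67 in WT on day 5 (95% interval 0.02 to 1.33, edgeR adjusted p = 0.0965). Without KO day 0 replicate 1, which was the higher of its pair, C2 passed in KO on day 1 (edgeR adjusted p = 0.0269) and day 5 (0.0249), as it did with all isoforms summed (0.0370 and 0.0497).

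**Figure D2:**
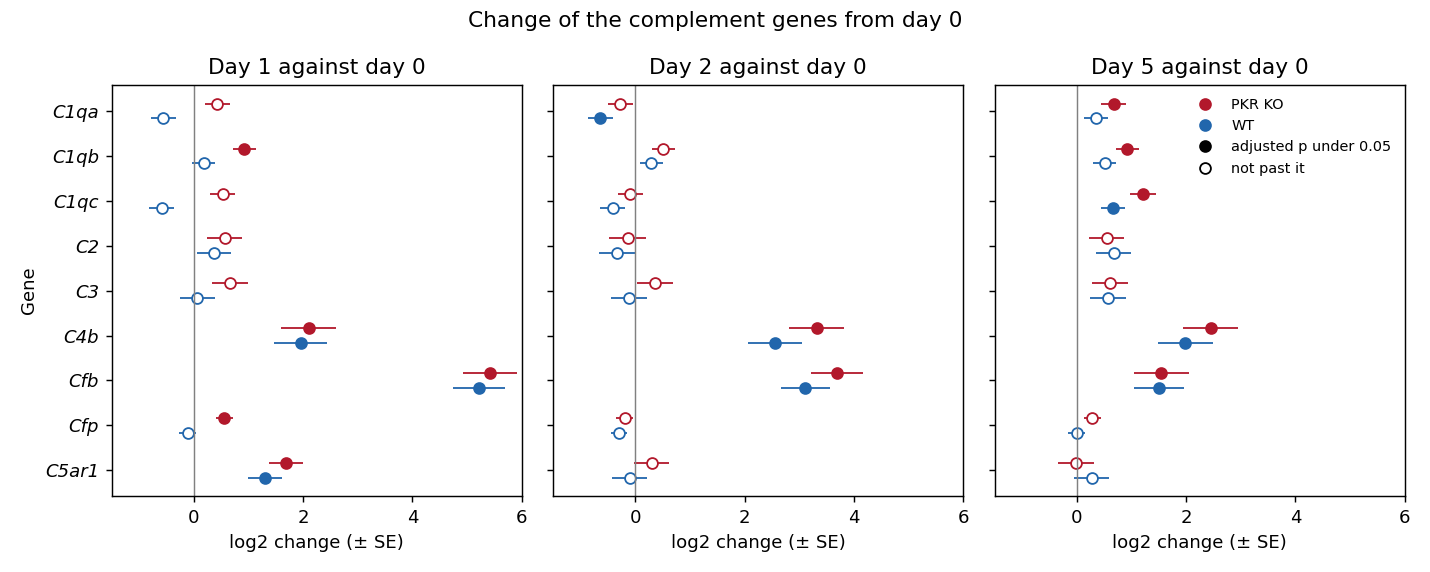
Log2 change from day 0 (± SE) of each complement gene on days 1, 2 and 5, PKR KO in red above WT in blue, filled where the edgeR adjusted p is under 0.05. Cfb is at 5.42 in KO and 5.21 in WT on day 1 and at 1.55 and 1.51 on day 5, C4b is past the threshold in all 6 comparisons, and C3 and C2 in none of these.

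The 3 chains of C1q are encoded side by side and assemble into one molecule, but their RNAs did not keep the same ratio over the days. C1qa had 16.2 and 10.3 CPM in KO on day 0, 17.1 and 18.8 CPM on day 1, 11.2 and 10.8 CPM on day 2, and 21.5 and 21.03 CPM on day 5. In WT it had 15.8 and 19.0 CPM on day 0, 14.5 and 9.24 CPM on day 1, 9.35 and 12.9 CPM on day 2, and 24.3 and 20.2 CPM on day 5. The 2 lowest means were those of day 2 and the 2 highest those of day 5. C1qa was higher than on day 0 in KO on day 5 (log2 change 0.68 ± 0.23, edgeR adjusted p = 0.025) and lower in WT on day 2 (-0.64 ± 0.23, edgeR adjusted p = 0.0324). The KO call was lost without KO day 0 replicate 2 (edgeR adjusted p = 0.171), KO day 5 replicate 1 (0.0752) or KO day 5 replicate 2 (0.0566). The WT call was lost in 9 of 24 alternatives, 8 of them with 1 library left out, among them WT day 2 replicate 1 (edgeR adjusted p = 0.291) and either WT day 0 library (0.0616 and 0.229). In KO on day 1 C1qa passed in 4 of 24 alternatives, without KO day 0 replicate 1 (edgeR adjusted p = 0.0189), with only the groups compared (0.0359), with no filter (0.0179) and without composition scaling (0.0466). On day 1 in WT, C1qa had a log2 change of -0.56 ± 0.22 (edgeR adjusted p = 0.0572), which passed in 5 of 24 alternatives, namely without WT day 1 replicate 1 (0.00748), without either KO day 0 library (0.0361 and 0.0314), with no filter (0.00319) and in DESeq2 (DESeq2 adjusted p = 0.0419).

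C1qc followed C1qa closely. It had 16.5 and 11.5 CPM in KO on day 0, 18.8 and 21.7 CPM on day 1, 14.4 and 12.0 CPM on day 2, and 33.6 and 31.4 CPM on day 5. In WT it had 19.5 and 17.8 CPM on day 0, 15.9 and 9.06 CPM on day 1, 14.9 and 13.2 CPM on day 2, and 33.2 and 26.0 CPM on day 5. All 4 day 5 libraries lay above all 12 others. The day 5 rise was 2.31-fold in KO (log2 change 1.21 ± 0.23, edgeR adjusted p = 0.000733), a call lost under none of the 24 alternatives. In WT it was 1.58-fold (0.66 ± 0.23, edgeR adjusted p = 0.0318), and that call was lost without either WT day 0 library (edgeR adjusted p = 0.0697 and 0.141) or WT day 5 replicate 1 (0.170). On day 1 C1qc stood at 0.53 in KO (edgeR adjusted p = 0.0827) and at -0.59 ± 0.23 in WT (0.0508), with opposite signs. The KO change passed in 8 of 24 alternatives, among them DESeq2 (DESeq2 adjusted p = 0.0433), no filter (edgeR adjusted p = 0.00178), no composition scaling (0.0368), only the groups compared (0.00853) and the omission of KO day 0 replicate 1 (0.0293) or either WT day 1 library (0.0180 and 0.0179). The WT change passed in 6, among them DESeq2 (DESeq2 adjusted p = 0.0298), no filter (edgeR adjusted p = 0.00119) and the omission of WT day 1 replicate 1 (0.00123) or either KO day 0 library (0.0452 and 0.0390).

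C1qb parted from the other chains on days 1 and 2. It had 14.1 and 10.1 CPM in KO on day 0, 20.6 and 25.3 CPM on day 1, 17.3 and 17.2 CPM on day 2, and 22.1 and 23.8 CPM on day 5. In WT it had 15.4 and 13.9 CPM on day 0, 21.2 and 12.2 CPM on day 1, 17.8 and 18.1 CPM on day 2, and 22.6 and 19.2 CPM on day 5. On day 2 every library of both genotypes lay above every day 0 library, where C1qa lay inside the day 0 range in 3 libraries and below it in 1. In KO the rise was 1.90-fold on day 1 (log2 change 0.92 ± 0.21, edgeR adjusted p = 0.00254) and 1.90-fold on day 5 (0.92 ± 0.21, edgeR adjusted p = 0.00231), and neither call was lost under an alternative. In KO on day 2 the change was 0.51 (edgeR adjusted p = 0.0576), which passed in 17 of 24 alternatives. In WT the changes were 0.18 on day 1 (edgeR adjusted p = 0.496), 0.29 on day 2 (0.280) and 0.51 on day 5 (0.0656). The first passed without WT day 1 replicate 2 (edgeR adjusted p = 0.0325), and the last in 7 of 24 alternatives, namely DESeq2 (DESeq2 adjusted p = 0.0397), only the groups compared (edgeR adjusted p = 0.0159), no filter (0.00325), and the omission of either WT day 1 library (0.0119 and 0.0118) or either KO day 0 library (0.0393 each).

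Ratios of the chains within a library do not depend on depth or scaling, and were looked at after these values had been seen. On the FPKM scale, which corrects for transcript length, C1qb over C1qa was 0.83 and 0.93 in KO and 0.93 and 0.70 in WT on day 0. It was 1.16 and 1.28 in KO and 1.39 and 1.26 in WT on day 1, and 1.48 and 1.52 in KO and 1.82 and 1.34 in WT on day 2. On day 5 it was 0.98 and 1.08 in KO and 0.89 and 0.91 in WT. All 8 libraries of days 1 and 2 thus lay above all 8 of days 0 and 5, with a gap between 1.08 and 1.16. C1qb over C1qc was 0.86 to 0.96 in the 4 day 0 libraries, 1.21 to 1.49 on day 1, 1.32 to 1.58 on day 2 and 0.73 to 0.84 on day 5. C1qc over C1qa was 0.81 to 1.07 on day 0, 0.85 to 1.00 on day 1, 0.88 to 1.38 on day 2 and 1.11 to 1.35 on day 5. All 4 day 5 libraries lay above all 8 of days 0 and 1 in this ratio, whereas day 2 overlapped with every other day.

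**Figure D3:**
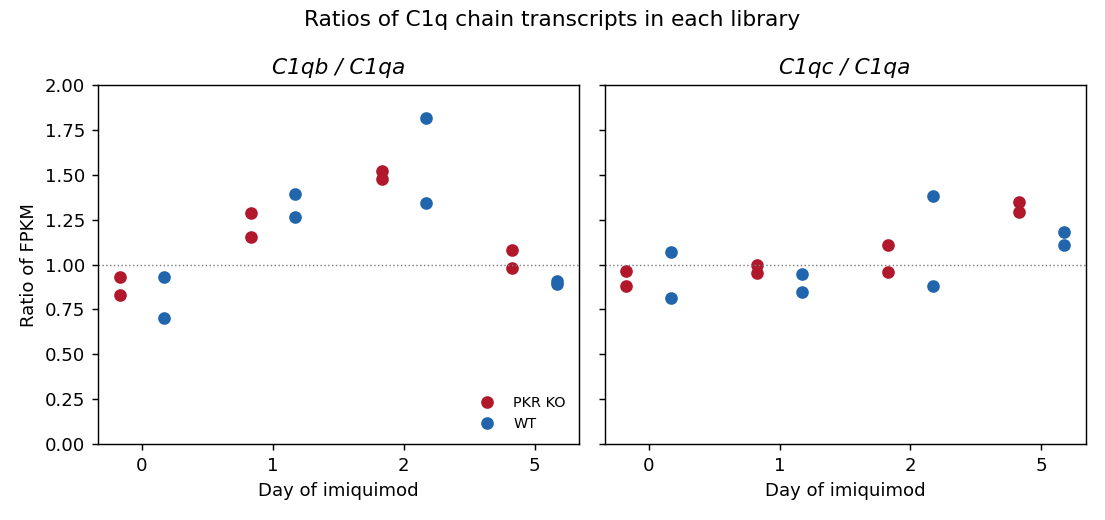
Ratio of FPKM of C1qb to C1qa (left) and of C1qc to C1qa (right) in each library by day of imiquimod, PKR KO in red and WT in blue, with a dotted line at 1. The C1qb to C1qa ratio lies between 1.16 and 1.82 in all day 1 and day 2 libraries and between 0.70 and 1.08 on days 0 and 5.

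Markers of macrophages, monocytes and dendritic cells moved on the same days, some along with the C1q chains and some against them. The summed level of 8 red pulp macrophage markers was 186 and 185 CPM in KO on day 0, 99.7 and 114.6 CPM on day 1, 66.6 and 57.7 CPM on day 2, and 299 and 298 CPM on day 5. In WT it was 182 and 217 CPM on day 0, 120 and 75.2 CPM on day 1, 56.1 and 57.8 CPM on day 2, and 311 and 271 CPM on day 5. On day 1, 1 of the 8 markers was higher and 3 lower in KO, and 1 was higher and 6 lower in WT. In KO the sum was below day 0 in both day 1 libraries, where all 3 C1q chains lay above day 0. On day 2, 0 of the 8 markers were higher and 6 lower in KO, and 0 were higher and 7 lower in WT. On day 5, 5 were higher and 1 lower in each genotype. The 8 monocyte markers summed to 326 and 342 CPM in KO on day 2 against 764 and 759 CPM on day 0, and to 385 and 405 CPM in WT on day 2 against 630 and 699 CPM on day 0. On day 2 both sums were below day 0 in every library while C1qb was above day 0 in every library. Of the 8 monocyte markers, 1 was higher and 4 were lower in KO on day 2, so not all moved with their sum. With the library labelled KO day 2 replicate 1 left out, the KO count of red pulp markers was the same, 0 higher and 6 lower.

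The 3 markers of marginal zone macrophages, Marco, Cd209b and Siglec1, summed to 10.6 and 10.9 CPM in KO on day 1 against 4.17 and 2.70 CPM on day 0, and to 12.5 and 6.83 CPM in WT on day 1 against 3.80 and 4.62 CPM on day 0. All 4 day 1 sums were thus above day 0, with 2 markers higher and 1 lower in KO and 1 higher and 0 lower in WT. Conventional dendritic cell markers ran the other way, with all 7 lower on days 1 and 2 in both genotypes. They summed to 12.8 and 11.2 CPM in KO on day 1 against 45.9 and 50.1 CPM on day 0, and to 15.1 and 11.6 CPM in WT on day 1 against 44.3 and 44.2 CPM on day 0. The part of these cells in the C1q levels was not tested.

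C5ar1 encodes the receptor of the anaphylatoxin C5a, carried mainly by neutrophils, monocytes and macrophages, and it passed the test on day 1 and on neither later day. It had 13.3 and 15.2 CPM in KO on day 1 against 4.13 and 4.73 CPM in KO on day 0. WT had 14.8 and 7.95 CPM on day 1 against 4.15 and 4.98 CPM on day 0. The rise was 3.22-fold in KO (log2 change 1.69 ± 0.32, edgeR adjusted p = 0.000869) and 2.47-fold in WT (1.31 ± 0.31, edgeR adjusted p = 0.00415), and no alternative ended either call. On day 2 C5ar1 had 3.61 and 7.25 CPM in KO and 3.91 and 4.61 CPM in WT, and on day 5 it had 3.88 and 4.93 CPM in KO and 6.21 and 4.84 CPM in WT. These overlapped with day 0 in both genotypes. Neutrophil markers, 11 in the list, summed to 1202 and 1391 CPM in KO on day 1 against 854 and 733 CPM on day 0, and to 1308 and 612 CPM in WT on day 1 against 702 and 1264 CPM on day 0. In KO 4 of the 11 were higher on day 1 and 0 lower, and in WT 1 was higher and 3 lower. In 6 of the 8 groups the library with the higher neutrophil sum had the higher C5ar1 level, and in KO on day 0 and WT on day 5 it had the lower one. The part of neutrophil number in C5ar1 was not tested.

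Between treated days Cfb and C5ar1 fell first, and C1qa and C1qc were higher on day 5 than on day 2. From day 1 to day 2, 0 of the 9 genes were higher and 4 lower in KO (11.3% and 10.6% of all genes tested), and 0 were higher and 2 lower in WT (16.4% and 15.1%). Cfb was lower on day 2 than on day 1 by 3.31 times in KO (edgeR adjusted p = 0.012) and by 4.30 times in WT (0.00345). C5ar1 was lower by 2.61 times in KO (edgeR adjusted p = 0.00669) and by 2.65 times in WT (0.00483). Cfp and C1qa were lower in KO, with log2 changes of -0.75 (edgeR adjusted p = 0.00182) and -0.70 (0.0406), and the C1qa call was lost under 12 of 24 alternatives. C4b ran the other way in KO, 2.32-fold higher on day 2 than on day 1 with libraries that did not overlap (log2 change 1.22, edgeR adjusted p = 0.0618). It passed in 7 of 24 alternatives, among them DESeq2 (DESeq2 adjusted p = 0.0076) and only the groups compared (edgeR adjusted p = 0.0174), and not without the library labelled KO day 2 replicate 1 (1.39, 0.110). C1qc was lower in KO on day 2 by 0.62 on the log2 scale (edgeR adjusted p = 0.0730) and passed in 7 of 24 alternatives too. Without the library labelled KO day 2 replicate 1, 2 of the 9 passed in KO, Cfp (edgeR adjusted p = 0.0278) and C5ar1 (0.0391), and Cfb had a log2 change of -1.55 (0.0954). Without KO day 1 replicate 2 the KO count was also 2, with Cfb at edgeR adjusted p = 0.0746. In WT the count was 4 without WT day 1 replicate 1 and 1 without WT day 2 replicate 1, where C5ar1 missed the threshold (edgeR adjusted p = 0.0628).

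From day 2 to day 5, 4 of the 9 passed in KO, 3 higher and 1 lower, where 34.4% of all genes passed in either direction. In WT 4 also passed, 3 higher and 1 lower, where 29.3% of all genes did. C1qa was 1.93-fold higher on day 5 in KO (edgeR adjusted p = 0.00492) and 1.99-fold in WT (0.00414), and C1qc was 2.46-fold higher in KO (0.000563) and 2.11-fold in WT (0.00275). Cfb was lower by 4.42 times in KO (edgeR adjusted p = 0.00355) and by 3.04 times in WT (0.0165). The remaining call was Cfp in KO (log2 change 0.47, edgeR adjusted p = 0.0244) and C2 in WT (1.01, edgeR adjusted p = 0.0271). Those were the least stable, Cfp being lost without KO day 2 replicate 1 (edgeR adjusted p = 0.173) or either KO day 5 library (0.0583 and 0.169), and C2 without WT day 2 replicate 2 (0.263) or either WT day 5 library (0.153 and 0.0555). Without WT day 2 replicate 2 or WT day 5 replicate 2 the WT count was 2, with Cfb at edgeR adjusted p = 0.100 and 0.113. Without WT day 2 replicate 1, C1qa in WT had edgeR adjusted p = 0.0552. With the library labelled KO day 2 replicate 1 left out, the KO changes were 0.98 for C1qa (edgeR adjusted p = 0.0335), 1.44 for C1qc (0.00405) and -2.32 for Cfb (0.0119).

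Between the genotypes no complement gene passed the test on any day. Of the 9 genes, 0 differed between KO and WT by edgeR on day 0 (0.0213% of all genes passed), day 1 (0.187%), day 2 (0%) and day 5 (0.00533%), and 0 in the difference averaged over the days (0.0267%). At an unadjusted p under 0.05, 4 of the 9 passed on day 1, where 9.16% of all genes did, and 0 on each of the other days (5.94% of all genes on day 0, 4.83% on day 2 and 6.28% on day 5). DESeq2 called 0 on each day too, and without the library labelled KO day 2 replicate 1 the day 2 count was again 0. On day 1, C1qc had 18.8 and 21.7 CPM in KO against 15.9 and 9.06 CPM in WT, a log2 difference of 0.70 (95% interval 0.21 to 1.19, edgeR adjusted p = 0.292). C1qa had a difference of 0.60 (0.12 to 1.08, edgeR adjusted p = 0.401), C1qb of 0.46 (0.02 to 0.90, edgeR adjusted p = 0.518) and Cfp of 0.37 (0.05 to 0.69, edgeR adjusted p = 0.438). These were the 4 genes with an unadjusted p under 0.05, and the WT day 1 libraries behind them were unlike. Without WT day 1 replicate 1 the C1qc difference was 1.14 (edgeR adjusted p = 0.0349), and without WT day 1 replicate 2 it was 0.34 (1.00). With no filter on low counts, C1qa (edgeR adjusted p = 0.0278) and C1qc (0.00209) were called on day 1.

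The difference between the genotypes in the change from day 0 was tested as an interaction. By edgeR 0 of the 9 genes passed on day 1 (0.171% of all genes), day 2 (0%) and day 5 (0%), and at an unadjusted p under 0.05 there were 4, 0 and 0, where 13.1%, 4.07% and 7.91% of all genes passed. On day 1 the C1qc interaction was 1.11 (95% interval 0.41 to 1.81, edgeR adjusted p = 0.192), that of C1qa 0.99 (0.30 to 1.67, edgeR adjusted p = 0.218), that of C1qb 0.74 (0.11 to 1.37, edgeR adjusted p = 0.301) and that of Cfp 0.68 (0.22 to 1.13, edgeR adjusted p = 0.201). DESeq2 called C1qc (DESeq2 adjusted p = 0.0413) and no other member, and edgeR with no filter on low counts called C1qa (0.00154), C1qb (0.0445) and C1qc (8.82e-05). Without WT day 1 replicate 2 the C1qc interaction was 0.75 (edgeR adjusted p = 0.498). For the genes with the largest responses the intervals were wide. The Cfb interaction on day 1 was 0.20 (95% interval -1.24 to 1.65, edgeR adjusted p = 0.921), and the C4b difference on day 2 was 0.79 (-0.12 to 1.71, edgeR adjusted p = 0.991). C4b had 6.65 and 8.71 CPM in KO against 4.26 and 4.59 CPM in WT on that day, and the groups did not overlap. Without the library labelled KO day 2 replicate 1 that difference was 0.97 (edgeR adjusted p = 0.631).

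**Figure D4:**
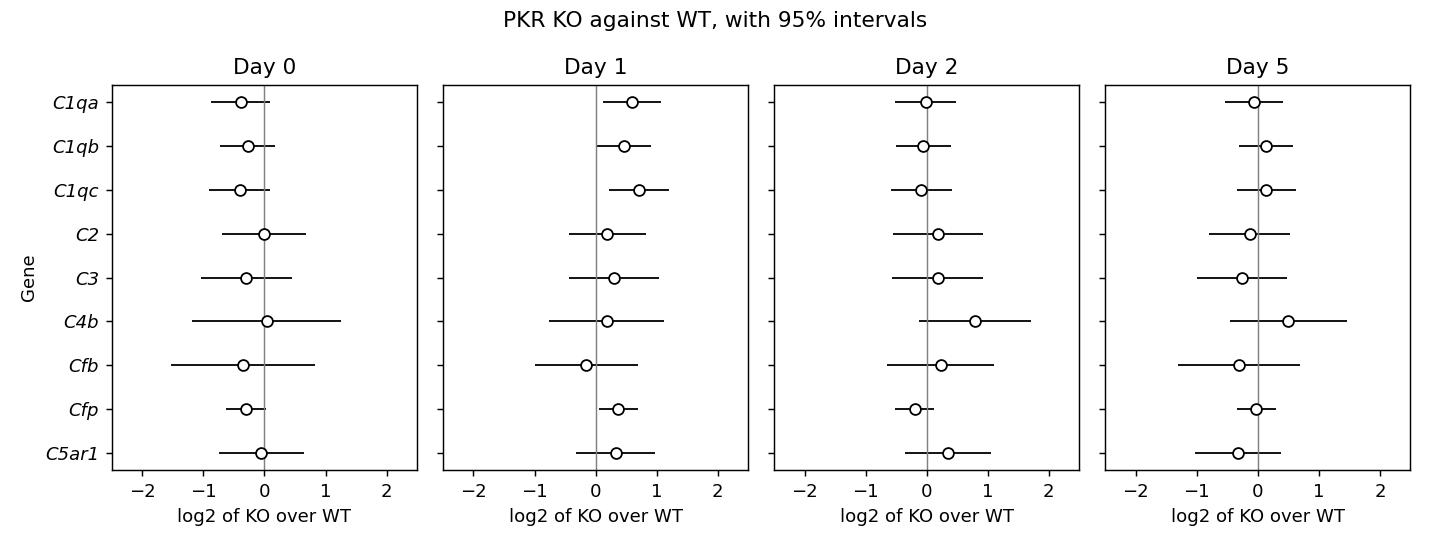
Log2 of KO over WT with 95% intervals for each complement gene on days 0, 1, 2 and 5. On day 1 the intervals of C1qa, C1qb, C1qc and Cfp lie above 0, and none of the 36 values has an edgeR adjusted p under 0.05.

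Compared per transcript length, the C1q chains and properdin were the most abundant members and C2 and C4b the scarcest. Over the 16 libraries the median FPKM was 16.1 for C1qa, 15.8 for C1qb, 15.5 for Cfp, 14.8 for C1qc, 7.70 for C3, 3.65 for Cfb, 1.83 for C5ar1, 0.66 for C4b and 0.51 for C2. On day 1 Cfb had 19.2 and 29.0 FPKM in KO and 40.7 and 20.7 FPKM in WT, where the highest C1q chain had 24.9 FPKM in KO and 23.4 FPKM in WT. Cfb had the widest range, its highest library being 65.0 times its lowest on the CPM scale, followed by C4b with 16.8 times. The other 7 genes ranged from 1.95 times for Cfp to 4.22 times for C5ar1.

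The 8 groups can be ordered by mean level, and most neighbours in that order had overlapping libraries. For Cfb the order on the CPM scale was KO day 0, WT day 0, KO day 5, WT day 5, WT day 2, KO day 2, KO day 1 and WT day 1, with means of 1.47, 1.91, 4.36, 5.38, 16.3, 19.1, 63.3 and 70.3 CPM. Of its 7 steps, 4 were between groups whose libraries did not overlap. C1qb, C1qc and C4b each had 2 such steps, C1qa, C2, Cfp and C5ar1 each had 1, and C3 had 0. For C4b the separate steps were those from WT day 0 to WT day 1 and from WT day 2 to KO day 2. For C5ar1 the one separate step lay below the 2 day 1 groups, with means of 14.2 CPM in KO and 11.4 CPM in WT on day 1 over a next highest of 5.53 CPM in WT on day 5.

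The genes whose levels were most alike over the 16 libraries are given as a description, since the libraries share their days and their cell mixture. Likeness was Pearson's r of log2(CPM + 0.5) against 10380 other genes with a mean FPKM of 1 or more. Cfb was most like Phf11a (r = 0.98), Trafd1 (0.98) and Mif (0.97), and C5ar1 most like Trem1 (0.97), Pla2g7 (0.97) and Lilrb4a (0.96). C4b was most like Cyb5r1 (0.92), Haspin (0.92) and Tedc1 (0.91). Among the C1q chains, C1qc was most like Furin (0.96), Rgp1 (0.94) and Itgb2 (0.94), C1qa was close to Csf2ra and Apobr (0.90 each), and C1qb was most like Slc11a1 (0.94), Ntng2 (0.87) and Fbxl18 (0.87). C2 was most like Flot1 (0.89), Plin2 (0.89) and Fgr (0.88), C3 most like App (0.89), Itgam (0.83) and Trpm2 (0.83), and Cfp most like Amdhd2 (0.91), Hmox1 (0.89) and Prdx5 (0.88). Between members, r was 0.91 for C1qa with C1qc, 0.82 for C1qb with C3 and 0.78 for Cfb with C5ar1. It was 0.71 for C1qb with C1qc and 0.61 for C1qa with C1qb. Cfb and C2, the close neighbours, had an r of 0.18.

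A wider list of 42 other complement genes held many parts of the cascade with few or no counts in these spleens. Of the 42, 23 had enough counts to be tested and 7 had no count in any library. Hc, which encodes C5, had at most 5 counts per library, and Cfd, which encodes factor D, had at most 2. On day 1, 3 of the 23 were higher and 8 lower in KO, and 4 were higher and 9 lower in WT. On day 2, 5 were higher and 9 lower in KO, and 3 were higher and 7 lower in WT. On day 5, 3 were higher and 6 lower in KO, and 6 were higher and 4 lower in WT. The shares over all genes given above for the same comparisons were 18.0% to 25.6% in each direction, so that a share of about 5 in 23 is background. The counts of 8 and 9 lower on day 1 and of 9 lower in KO on day 2 are above it. The 7 lower in WT on day 2 are close to the 23.0% of all genes, and the 6 higher in WT on day 5 to the 21.5%. The median log2 change of the 23 was -0.62 in KO and -0.14 in WT on day 1. On day 2 it was -0.44 in KO and -0.17 in WT. The day 5 median was 0.24 in KO and 0.20 in WT. Over all genes the medians of these comparisons lay between -0.07 and -0.01. With the library labelled KO day 2 replicate 1 left out, 4 were higher and 9 lower in KO on day 2, of 24 that could then be tested, with a median of -0.41. Between the genotypes edgeR called 0 of the 23 on each of the 4 days, as did DESeq2, and at an unadjusted p under 0.05 there were 2, 6, 2 and 0 on days 0, 1, 2 and 5 (5.94%, 9.16%, 4.83% and 6.28% of all genes).

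The largest changes ran in both directions. C6, a component of the membrane attack complex, had 0.14 and 0.16 CPM in KO on day 1 against 3.35 and 2.70 CPM on day 0, and 0.13 and 0.06 CPM in WT on day 1 against 3.40 and 3.95 CPM on day 0. That is a log2 change of -4.28 ± 0.52 in KO (edgeR adjusted p = 6.47e-06) and -5.26 ± 0.51 in WT (edgeR adjusted p = 7.51e-07), on at most 8 counts per library on day 1. C6 was back at 3.91 and 3.05 CPM in KO and 3.13 and 2.03 CPM in WT on day 5. C4bp, the C4b-binding protein that inhibits the classical convertase, had 0 counts in all 8 libraries of days 0 and 5, and 43 and 27 counts in KO and 39 and 55 counts in WT on day 2. With the floor set at 3 counts in each day 0 library, day 2 was at least 13.5-fold higher in KO and at least 19.8-fold higher in WT. Without the library labelled KO day 2 replicate 1 it was at least 9.83-fold higher in KO. Fcna, the lectin ficolin A made by macrophages, had 3.02 and 2.71 CPM in KO on day 1 against 12.4 and 8.81 CPM on day 0, and 2.69 and 1.07 CPM in WT on day 1 against 11.9 and 13.7 CPM on day 0.

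**Figure D5:**
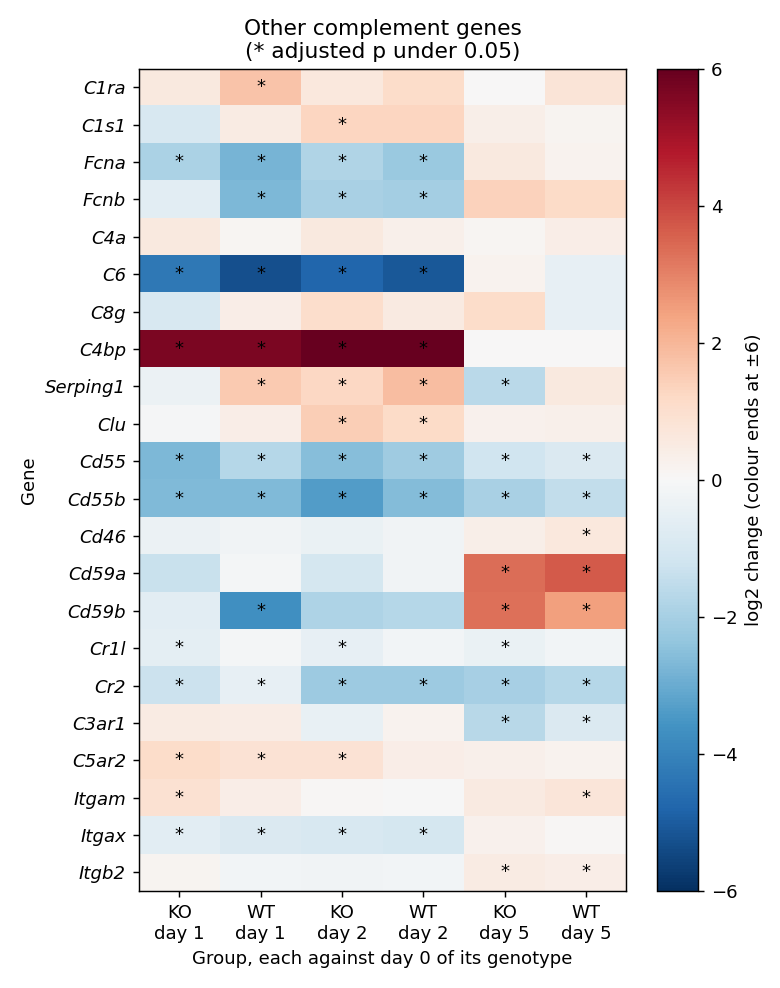
Log2 change from day 0 of other complement genes that could be tested, in columns for KO and WT on days 1, 2 and 5, with * where the edgeR adjusted p is under 0.05. C6 is lowest at -5.26 in WT on day 1, and the values of C4bp are fitted against day 0 groups with 0 counts, its day 5 groups also having 0 counts.

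Among inhibitors on the cell surface, decay-accelerating factors were lower on every treated day and the CD59 genes were higher on day 5. Of 6 membrane regulators, 0 were higher and 3 lower in KO and 0 were higher and 3 lower in WT on day 1. Over all genes 18.0% to 25.6% were called in each direction in the comparisons with day 0, so that 2 of 6 is close to background. On day 2, 0 were higher and 3 lower in KO, and 0 were higher and 2 lower in WT, with 4 lower in KO without the library labelled KO day 2 replicate 1. Cd55 and Cd55b were among those lower each time, and were lower on day 5 too, when 2 were higher and 3 lower in KO and 3 were higher and 2 lower in WT. Cd55b had 0.76 and 0.28 CPM in KO on day 2 against 3.84 and 6.86 CPM on day 0 (log2 change -3.36 ± 0.50, edgeR adjusted p = 8.12e-05), and 1.05 and 0.59 CPM in WT on day 2 against 2.81 and 6.68 CPM on day 0 (-2.58 ± 0.47, edgeR adjusted p = 0.000469). With the library labelled KO day 2 replicate 1 left out, the Cd55b change in KO was -4.22 (edgeR adjusted p = 0.000205). Cd59a, which blocks the membrane attack complex, had 6.16 and 5.59 CPM in KO on day 5 against 0.34 and 0.86 CPM on day 0, and 4.24 and 4.50 CPM in WT on day 5 against 0.18 and 0.46 CPM on day 0. Its log2 change was 3.33 ± 0.40 in KO (edgeR adjusted p = 2.68e-06) and 3.70 ± 0.42 in WT (edgeR adjusted p = 1.8e-06), and its duplicate Cd59b was higher on day 5 as well, at 3.30 in KO (0.00027) and 2.47 in WT (0.00294). The pair are paralogs, so fragments may be shared between them. Cd59b was also lower on day 1 in WT (-3.67, edgeR adjusted p = 0.0119), on 1 and 0 counts against 9 and 4 on day 0. On day 5 all 6 erythroid precursor markers were higher in both genotypes, with sums of 3390 and 2578 CPM in KO against 80.4 and 145.6 CPM on day 0, and of 1880 and 1510 CPM in WT against 40.5 and 152.9 CPM on day 0. Their part in the Cd59a and Cd59b levels was not tested.

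Among the receptors, Cr2, the complement receptor of B cells that binds C3d, was lower on every treated day. It had 136 and 135 CPM in KO on day 1 against 294 and 359 CPM on day 0, and 182 and 219 CPM in WT on day 1 against 281 and 292 CPM on day 0. On day 2 it had 78.1 and 65.9 CPM in KO and 54.2 and 71.7 CPM in WT, a log2 change from day 0 of -2.18 ± 0.18 in each genotype (edgeR adjusted p = 2.1e-08 in KO and 2.58e-08 in WT), or -2.31 in KO without the library labelled KO day 2 replicate 1 (edgeR adjusted p = 3.28e-07). On day 5 it was still at 73.9 and 89.2 CPM in KO and 102.5 and 73.5 CPM in WT. The summed level of 7 B cell markers was lower by less. It was 1320 and 1200 CPM in KO on day 2 against 1856 and 1870 CPM on day 0. In WT it was 1528 and 1361 CPM on day 2 against 1954 and 1750 CPM on day 0. The markers did not move alike, with 0 of the 7 higher and 5 lower in KO on day 2, where 25.6% of all genes were lower. Without the library labelled KO day 2 replicate 1, their KO log2 changes on day 2 ran from -2.38 for Fcer2a to 0.20 for Cd22. C5ar2, the second C5a receptor, was higher on day 1 with a log2 change of 1.09 ± 0.19 in KO (edgeR adjusted p = 0.000188) and 0.89 ± 0.19 in WT (edgeR adjusted p = 0.000981). C3ar1, the C3a receptor, did not pass on day 1 and was lower on day 5 in both genotypes, with log2 changes of -1.64 ± 0.31 in KO (edgeR adjusted p = 0.000291) and -0.88 ± 0.30 in WT (edgeR adjusted p = 0.0262). On the days given here the 3 anaphylatoxin receptor genes differed, with C5ar1 and C5ar2 higher on day 1 and C3ar1 lower on day 5. Without the library labelled KO day 2 replicate 1, the KO log2 change on day 2 was 0.83 for C5ar2 and 0.71 for C5ar1.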

How the data were processed

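Ribosomal RNA-depleted, stranded total RNA of 16 spleen libraries (8 groups, 2 each) was sequenced, per the labels' protocols. The submitters' processing notes name mm10, bcl2fastq 2.17.1.14, Trimmomatic, HISAT2 and TopHat. Which program counted fragments, and on which annotation, is not given in the sources used here. Per the file headers, the authors deposited a fragment count, a depth-scaled fragment signal (FPM) and an FPKM value for each transcript. The deposited FPM signal is the count over library fragments, and the deposited FPKM is that per kilobase. In the authors' counts a fragment enters each transcript it overlaps, so summed counts were 1.48 to 2.12 times the library totals.

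For each symbol 1 transcript was kept, the protein-coding one with the highest mean count, or, for the 33460 of 55291 symbols with none annotated as coding, the one with the highest mean count of any type. The transcripts of all 9 members are coding. Of the transcript IDs 99.1% were found in GENCODE mouse release 21. Counts were tested with edgeR 4.0.16 (filterByExpr, TMM, quasi-likelihood F test with robust estimation, a mean for each group, two-sided, Benjamini-Hochberg over 18745 genes, call at adjusted p under 0.05) in 18 comparisons. SE is the log2 change over the square root of F, and the script was tested on simulated data. P-values measure the spread between pools of mice. DESeq2 1.42.0 and other settings were run as alternatives. All 9 members were named, with the 6 largest called changes of the wider complement list, a fixed set of 7 from it, and the 3 genes most alike for each member, apart from items that are not reported here. The members, lists and rules were chosen with earlier results of these data known.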

Additional observations from a re-analysis of the deposited data

Results flagged for a closer look

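On the CPM scale 2 genes moved from day 0 to day 1 in opposite directions in every library of the 2 genotypes. C1qa was higher on day 1 in both KO libraries and lower in both WT libraries, with an interaction of 0.985 on the log2 scale (edgeR adjusted p = 0.218). C1qc did the same, with an interaction of 1.11 (edgeR adjusted p = 0.192). Neither difference passed the edgeR test, and both were smaller without WT day 1 replicate 2, at 0.68 (edgeR adjusted p = 0.587) for C1qa and 0.75 (edgeR adjusted p = 0.498) for C1qc. Without KO day 0 replicate 2 they were 0.72 (edgeR adjusted p = 0.611) for C1qa and 0.90 (edgeR adjusted p = 0.522) for C1qc. Leaving out the other library of these pairs made the change from day 0 larger in size. Without WT day 1 replicate 1 the WT change was -0.90 for C1qa and -1.02 for C1qc, against -0.56 and -0.59 with it. Without KO day 0 replicate 1 the KO change was 0.82 for C1qa and 0.84 for C1qc, against 0.43 and 0.53 with it. The order of the WT libraries also depended on the TMM scaling, with factors of 1.204 and 1.195 in the WT day 1 libraries. On the FPKM scale, which is not scaled by TMM, WT day 1 replicate 1 lay inside the WT day 0 range for both genes. C1qa had 16.8 FPKM in it against 15.5 and 17.1 FPKM in WT on day 0, and C1qc had 15.9 FPKM against 16.5 and 13.9 FPKM. The groups of 2 libraries are too small for a search for single outlying samples.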

How the results depend on the processing

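Of 3879 member values under alternatives, 3579 kept their direction and side of the threshold, 147 not called under either setting changed sign, 99 moved past the threshold, 54 fell short of it, and no called value changed sign. Counts of members called on day 1 against day 0 in WT were 5 with no filter and 5 with DESeq2 (3 in the test reported). With only the groups compared they were 5 in WT on day 5 (3), 8 in KO on day 1 (5) and 1 for WT day 2 against day 1 (2). Without composition scaling WT day 2 against day 1 gave 4 (2). With no filter KO day 2 against day 1 gave 7 (4), KO against WT on day 1 gave 2 (0) and the day 1 interaction 3 (0), where DESeq2 gave 1. Leaving out 1 library gave 3 to 8 in KO and 2 to 5 in WT on day 1, 2 to 3 in each on day 2, and 3 to 6 in KO and 0 to 5 in WT on day 5. It gave 2 to 6 in KO and 1 to 4 in WT for day 2 against day 1, 3 to 5 in KO and 2 to 5 in WT for day 5 against day 2, 0 to 1 for KO against WT on day 1, and 0 for the other genotype comparisons. The cause was not tested. Shares over all genes under the alternatives are not given here, so the counts show only how the member calls varied. With a replicate block the counts were 6 in KO and 4 in WT on day 1, 3 in each on day 2, and 5 in KO and 3 in WT on day 5. It added C1qc on day 1 in KO (edgeR adjusted p = 0.0174) and WT (0.00893), C1qb on day 2 in KO (0.0424) and C1qc for KO day 2 against day 1 (0.0162), and ended no call. Deviations of same-numbered libraries correlated at -0.211 to 0.333 over 28 pairs of groups (median 0.0138). Of these, 4 were over 0.1, all among days 0 and 2 of the genotypes, and 4 were under -0.1, so the numbers do not pair the libraries throughout and were treated as numbers only. Leaving the library labelled KO day 2 replicate 1 out of the counts of the wider list and the marker lists was chosen after seeing the data. Depth limits C2 and C4b most, at 28 and 20 counts in their lowest libraries.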
